A study of Mus musculus with 96 samples.

Results

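The PAR bZIP clock output factors Dbp, Tef and Hlf and their antagonist Nfil3 were followed through liver, skeletal muscle and cerebral cortex of mice fed freely or fasted for part of each day. They were taken from the gene table by name alone, and each name matched 1 entry, which gave 4 of 56748 genes. On GRCm39, Dbp (ENSMUSG00000059824) lies at chr7:45354512-45359627 on the plus strand and Tef (ENSMUSG00000022389) at chr15:81686622-81711064 on the plus strand. Hlf (ENSMUSG00000003949) lies at chr11:90227362-90281721 and Nfil3 (ENSMUSG00000056749) at chr13:53121245-53135109, both on the minus strand.

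In the core clock, BMAL1 with CLOCK or NPAS2 activates genes through E-boxes, and the PER and CRY proteins repress that activity. Dbp, Tef and Hlf are driven by this oscillator and in turn activate genes that carry a D-box, many of them for detoxification and metabolism in the liver. Nfil3, also called E4BP4, represses through the same element and is itself repressed by REV-ERB proteins, so its transcript usually peaks in a phase opposite to that of Dbp.

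The study compared mice fed ad libitum (AL) with mice under intermittent fasting (IF), by RNA-seq of poly-A RNA from each tissue. Mice 1 to 16, labelled male, were C57BL/6 animals that arrived at 4 weeks of age, entered their diets at 6 weeks and stayed on them for 4 months, with lights on from 7 h to 19 h. The IF mice had no food for 16 h a day, with access from 8 h to 16 h, all within the light hours. The AL mice could eat at any hour, so the fast, the hour of meals and a shift of clock phase cannot be told apart. All were killed between 7 h and 12 h, at the end of the daily fast for the IF group. Mice 25 to 40, labelled female, carry the same 2 diets in the labels, but the study's methods describe males only, so the age, strain and collection hours of the females are not given. The hour at which any particular mouse was collected is not given either, so no level could be set against it. Each tissue held 8 AL and 8 IF mice of each sex, different animals, with all 3 tissues taken from each mouse number. In cortex the AL males were 7, because a library was left out. The 95 libraries used held between 26097314 and 49838004 reads on genes, with a median of 36132954.

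The labels were checked against marker genes before any comparison. The omitted library, cortex of AL mouse 1, is labelled male but held 213 CPM (a gene's count over the library's gene total, times 1000000) of Xist and 0 CPM of 4 Y-linked genes. The 47 male libraries used held at most 0.612 CPM of Xist and between 67.9 and 177 CPM of the Y-linked genes, and the 48 female libraries held at least 36.8 CPM of Xist and at most 0.0746 CPM of the Y-linked genes. The summed markers of each tissue were high in their own libraries, with at least 44832 CPM for liver, 104687 CPM for muscle and 7052 CPM for cortex. The 5 muscle markers reached at most 7.05 CPM in liver and 29.2 CPM in cortex. The 5 liver markers reached 4270 CPM in a cortex library, of which 4269 CPM were Ttr, a gene that choroid plexus also transcribes.

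Per length, the members stood in a different order in each tissue of the AL males. In liver Nfil3 had the highest level, with 23.5 ± 5.34 RPKM (CPM divided by the gene's length in kilobases, mean ± SD, n = 8). Tef followed at 10.3 ± 2.47 RPKM, ahead of Hlf at 3.42 ± 0.552 RPKM and Dbp at 2.97 ± 2.74 RPKM, and Hlf and Dbp did not differ beyond their spread. In cortex of the AL males Tef led at 38.9 ± 4.36 RPKM, Hlf and Dbp lay close together at 24.8 ± 5.10 and 21.6 ± 4.57 RPKM, and Nfil3 was lowest at 8.59 ± 2.14 RPKM (n = 7). The AL female livers had Dbp on top with 78.7 ± 11.1 RPKM and Tef next with 56.3 ± 14.9 RPKM, while Nfil3 was at 8.70 ± 1.94 RPKM and Hlf at 6.39 ± 1.27 RPKM (n = 8).

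Across the 12 groups of tissue, sex and diet, mean Dbp ran from 245 CPM in IF female liver down to 8.88 CPM in AL male liver. Its order was female liver, female muscle, female cortex, male cortex, male muscle and male liver, with IF above AL in each pair. Neighbours that differed by less than the larger of their SDs were the IF and AL female livers, the IF and AL female muscles, AL female cortex and IF male cortex, the IF and AL male muscles, and AL male muscle and IF male liver. Mean Tef ran from 488 CPM in IF female liver to 81.3 CPM in AL male liver. AL female liver, IF male cortex, IF female cortex, AL female cortex, AL male cortex, IF male liver, IF female muscle, IF male muscle, AL female muscle and AL male muscle stood between these ends. For Tef only the steps below IF male cortex, IF female cortex, AL female muscle and AL male muscle were wider than the larger SD. These orders and those of the next paragraph are of CPM, which is not scaled for the composition of a tissue's RNA. The fits described below are so scaled. They give the opposite sign for muscle against cortex for Tef in fed mice, Dbp in fed males and Nfil3 in fed females.

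Hlf was ordered by tissue first. Its means ran from 205 CPM in IF male cortex through AL female, IF female and AL male cortex, then IF and AL female liver, IF and AL male liver, IF and AL female muscle, and IF male muscle to 10.6 CPM in AL male muscle. Neighbours among the 4 cortex groups did not differ beyond the spread, nor did the IF and AL female livers, the IF and AL female muscles, or AL female and IF male muscle. Nfil3 was highest in IF male muscle (50 CPM), followed by AL male liver, IF male liver and AL male muscle, none of which differed from the next of these beyond the spread. A wider step, from 36.1 to 17.6 CPM, parted these 4 groups from the other 8, which ran through AL female liver, AL male cortex, AL female cortex, IF female muscle, IF female liver, AL female muscle and IF female cortex to 10.8 CPM in IF male cortex without any step beyond the spread.

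**Figure D1:**
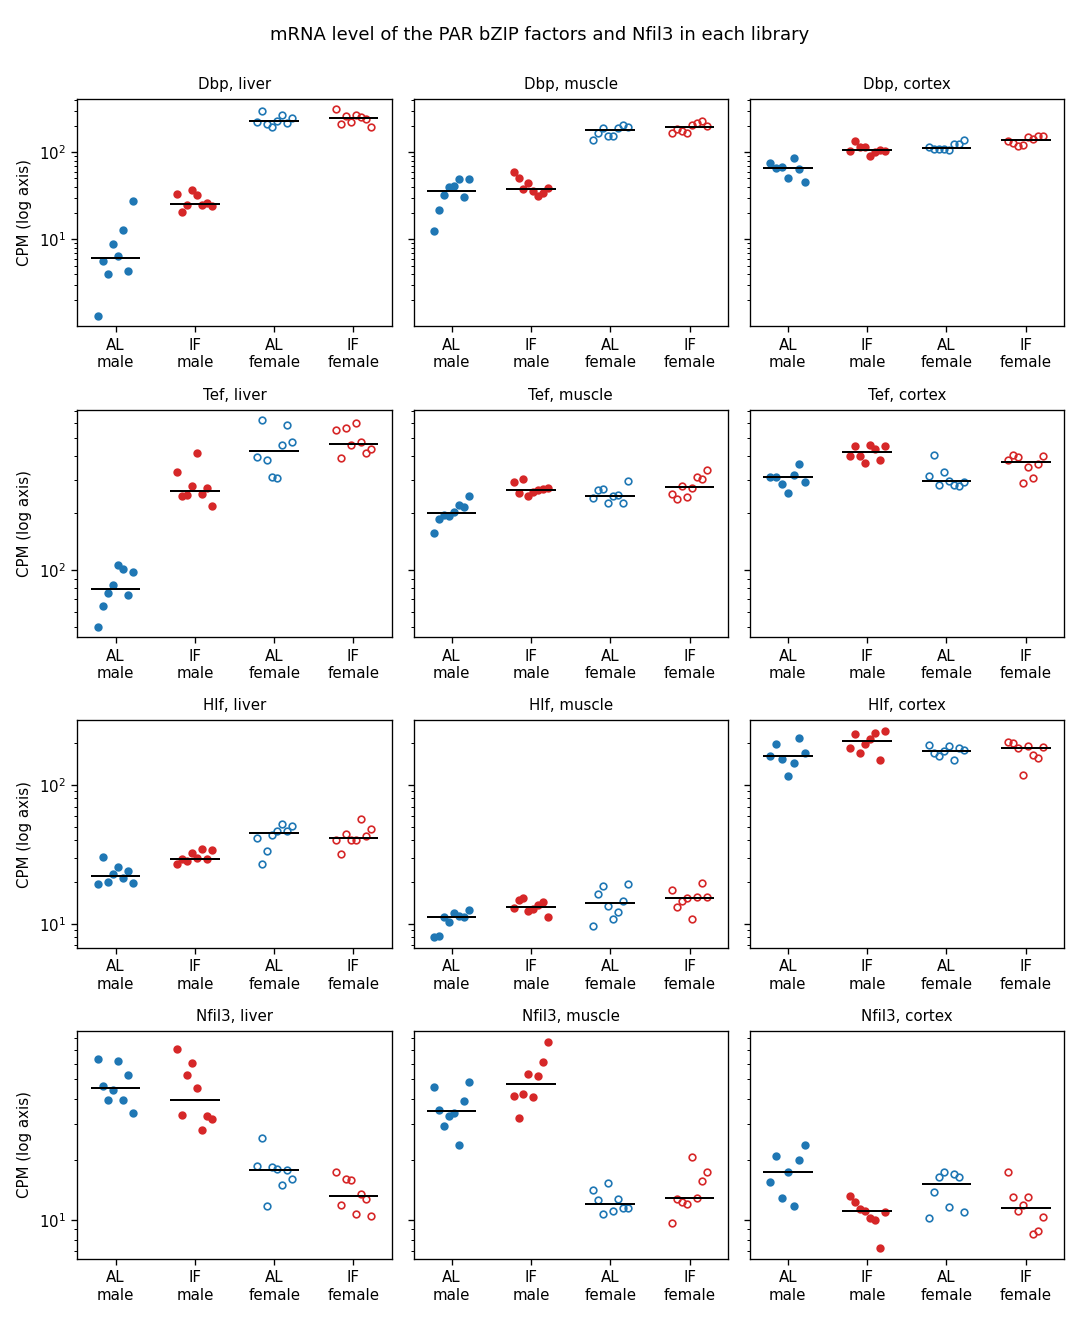
CPM on a log axis for each member in every library, by tissue, sex and diet, with points for mice and bars for group medians. In male liver the 8 IF mice lie above all AL mice for Tef, and in liver and muscle all females lie above all males for Dbp and below all males for Nfil3.

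The first question was how these factors changed under IF in the liver, where Dbp, Tef and Hlf are best known. In the males all 3 activators rose and Nfil3 did not pass the test. Dbp, named for its binding to the D site of the albumin promoter, ranged in AL livers from 1.33 CPM through a median of 6.12 CPM to 27.3 CPM, and in IF livers from 20.7 through 25.4 to 37 CPM. AL mouse 8 alone reached into the IF range, AL mouse 1 was lowest, and the other 7 AL livers lay below all 8 IF livers. The fitted change was 2.85-fold (log2 1.51 ± 0.456 SE, n = 8 per diet, adjusted p = 0.0142, edgeR quasi-likelihood test with Benjamini-Hochberg). Without AL mouse 8 it was 2.04 on the log2 scale, and without AL mouse 1 it was 1.34.

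Tef, the thyrotroph embryonic factor, ranged from 50.04 through 79.5 to 107 CPM in AL and from 218 through 263 to 418 CPM in IF male livers. The diets did not overlap, with the lowest IF liver (mouse 16) well above the highest AL liver (mouse 5). The change was 3.23-fold (log2 1.69 ± 0.150, adjusted p = 3.29e-09). Hlf, the hepatic leukemia factor, ranged from 19.3 through 22.1 to 30.2 CPM in AL and from 26.8 through 29.5 to 34.4 CPM in IF livers. All 8 IF livers exceeded the AL median, and AL mouse 2 was the only AL liver within the IF range. The change was 1.26-fold (log2 0.33 ± 0.101, adjusted p = 0.00926).

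Nfil3 ranged from 33.9 through 45.2 to 63.5 CPM in AL and from 28.2 through 39.3 to 70.7 CPM in IF male livers. The highest and the lowest of the 16 livers were both IF, those of mouse 9 and mouse 14, and 4 IF livers lay below all AL livers. Its log2 change was -0.20 ± 0.164 (adjusted p = 0.326, 95% interval from -0.53 to 0.12). Thus 3 of 4 members passed the threshold in male liver, all 3 higher in IF, where 44.6% of 16204 genes passed, 23.5% higher and 21.1% lower. In whole tissue, fewer cells of a type and less RNA per cell cannot be told apart.

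Markers of blood and vessels moved with diet in the same male livers. Of 5 erythrocyte markers, 3 rose in IF (Hba-a1, Hbb-bs and Hbb-bt), and their sum over the 5 ran from 362 to 956 CPM in AL and from 667 to 6879 CPM in IF, highest in mouse 9, with Hba-a1 reaching the highest level of the 5 at 3238 CPM. Of 5 endothelial markers, 3 rose (Kdr, Tek and Stab2), with sums of 103 to 147 CPM in AL and 148 to 314 CPM in IF, and Stab2 the most abundant. The macrophage marker Clec4f rose by 0.41 on the log2 scale as well. Among the 5 liver markers Cyp2e1 rose and Apoa1 fell, with sums from 51987 to 78286 CPM in AL and from 47720 to 71686 CPM in IF. Muscle markers were too low to be tested, and of the cortex markers only Mbp, which rose, was tested. No adipocyte marker passed, and of the 4 Y-linked genes Uty, Kdm5d and Eif2s3y fell. Without the livers of IF mice 9 and 10, which held the most haemoglobin mRNA, the log2 changes were 1.53 for Dbp, 1.68 for Tef, 0.37 for Hlf and -0.28 for Nfil3, with the same 3 members called. The median erythrocyte sum of the IF livers was 2070 CPM, above the highest AL liver. Leaving out these 2 livers therefore does not remove the difference in blood markers. The part of the erythrocyte, endothelial, macrophage and other markers in these changes was not tested.

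Skeletal muscle was the next tissue asked about, and there the changes were small. Tef ranged from 158 through 199 to 245.9 CPM in AL and from 246.2 through 267 to 303 CPM in IF male muscle. The diets did not overlap, though the highest AL muscle (mouse 8) and the lowest IF muscle (mouse 12) almost met. Tef rose 1.28-fold (log2 0.35 ± 0.0734, adjusted p = 0.00140). Hlf ranged from 7.98 through 11.1 to 12.5 CPM in AL and from 11.2 through 13.3 to 15.4 CPM in IF. The ranges overlapped, with 6 of 8 IF muscles above all AL muscles. Its change of 0.27 ± 0.0939 on the log2 scale had an adjusted p of 0.0376, which rose to as much as 0.0787 when AL mouse 1, 2 or 4 or IF mouse 10, 11, 13, 14 or 15 was left out singly, and was 0.117 with 7 mice per group.

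Dbp in male muscle ranged from 12.4 through 36.1 to 49.4 CPM in AL and from 31.4 through 38.2 to 58.9 CPM in IF. AL mice 1, 2 and 7 lay below all IF muscles, and 5 IF muscles exceeded the AL median. The log2 difference was 0.20 ± 0.237 (adjusted p = 0.594, 95% interval from -0.27 to 0.66). Nfil3 ranged from 23.5 through 34.7 to 48.7 CPM in AL and from 32.03 through 47.3 to 77.2 CPM in IF. The ranges overlapped, with 4 IF muscles above all AL muscles and IF mouse 16 highest. Its log2 difference of 0.40 ± 0.172 did not pass (adjusted p = 0.110), but did without IF mouse 10 (0.47, adjusted p = 0.0411). So 2 of 4 members passed in male muscle, where 23% of 15025 genes did, 11.5% higher and 11.6% lower.

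Fat markers moved with diet in male muscle. Of 5 adipocyte markers, 4 rose (Adipoq, Plin1, Fabp4 and Cidec), with sums from 143 to 515 CPM in AL and from 332 to 2489 CPM in IF, highest in mouse 12, and Fabp4 the most abundant at up to 1876 CPM, while Lep did not pass and was at 0 in an IF muscle. All 4 Y-linked genes rose, with sums from 67.9 to 85.1 CPM in AL and from 90.05 to 109 CPM in IF. Of the 5 muscle markers Ckm and Mb fell, with sums from 119092 to 127800 CPM in AL and from 106478 to 137247 CPM in IF. Cyp2e1 of the liver list rose, Cd3e of the leukocyte list fell, and in the endothelial list Stab2 rose and Kdr fell, while no erythrocyte marker passed. Their part in the changes of Tef and Hlf was not tested.

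In cortex Dbp and Tef rose in IF males and Nfil3 fell. Dbp ranged from 45.2 through 65.2 to 84.8 CPM in the 7 AL and from 90.9 through 106 to 133 CPM in the 8 IF cortices. The diets did not overlap, from AL mouse 6 as the highest of its group to IF mouse 13 as the lowest. Dbp rose 1.70-fold (log2 0.77 ± 0.116, adjusted p = 0.00192). Tef ranged from 255 through 312 to 366.6 CPM in AL and from 367.1 through 422 to 461 CPM in IF. Here too the diets did not overlap, with AL mouse 7 just under IF mouse 12. Tef rose 1.39-fold (log2 0.47 ± 0.0709, adjusted p = 0.00147).

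Nfil3 went the other way, with a range of 11.7 through 17.4 to 23.5 CPM in AL and of 7.26 through 11.1 to 13.2 CPM in IF male cortex. All 8 IF cortices were under the AL median and 6 were under all AL cortices, with AL mouse 6 low in its group. Nfil3 was 1.59-fold lower (log2 -0.67 ± 0.141, adjusted p = 0.0104). Hlf ranged from 116 through 162 to 220 CPM in AL and from 151 through 206 to 246 CPM in IF. The ranges overlapped widely, and AL mouse 7 was the highest of its group. Its log2 difference of 0.31 ± 0.119 did not pass (adjusted p = 0.112), but did without AL mouse 7 (0.39, adjusted p = 0.0342).

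In all, 3 of 4 members passed in male cortex, 2 higher and 1 lower, where 7.21% of 18462 genes passed, 3.79% higher and 3.43% lower. That share is itself unsteady, since the 1332 genes behind it became 2140 by DESeq2, 294 with the omitted library, 119 in 1 fit over the 3 tissues and from 638 to 2060 with single libraries left out. The members' calls rest in part on leaving out the library of AL mouse 1 that does not match its label. With it, Dbp was at 0.52 (adjusted p = 0.189) and Nfil3 at -0.59 (adjusted p = 0.0634), while Tef passed at 0.41 (adjusted p = 0.0144). In 1 fit over the 3 tissues none of the 3 passed, with adjusted p from 0.0502 to 0.329. Of the 5 cortex markers Mbp rose, from 2597 to 4107 CPM in AL to 3720 to 6320 CPM in IF, with marker sums of 7301 to 8910 CPM in AL and 8394 to 10574 CPM in IF, and Ptprc of the leukocyte list fell. Erythrocyte, endothelial and Y-linked markers did not pass, adipocyte markers were too low to be tested, and the part of Mbp and Ptprc was not tested.

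**Figure D2:**
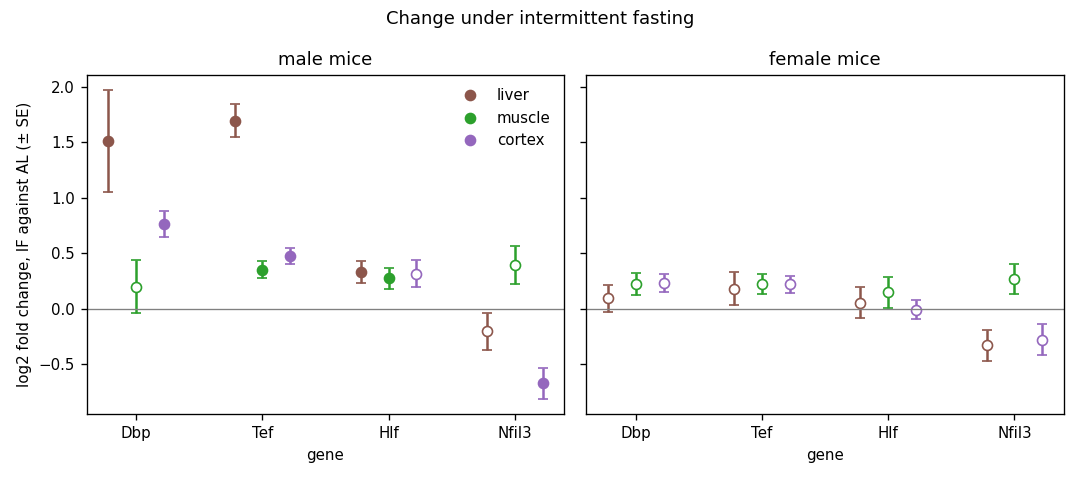
Log2 change of each member from AL to IF by tissue, for males and females, with bars of 1 SE derived from the edgeR test. Filled points have an adjusted p under 0.05. Tef in male liver stands highest at 1.69, and no female point is filled.

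Whether the tissues of the males differed in their response was tested as the difference of 2 diet changes, with mouse as a block. Dbp changed more in liver than in muscle by 1.57 ± 0.311 on the log2 scale (adjusted p = 1.84e-04), and more than in cortex by 0.91 ± 0.317 (adjusted p = 0.0302), though not without the mouse block (0.72, adjusted p = 0.204). Tef changed more in liver than in muscle by 1.31 ± 0.140 (adjusted p = 6.81e-09), and more than in cortex by 1.14 ± 0.143 (adjusted p = 1.85e-07). For both activators the liver therefore had the larger change.

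The repressor followed another order. Nfil3 had a diet change that was lower in liver than in muscle by a log2 difference of -0.69 ± 0.226 (adjusted p = 0.0180), and higher in muscle than in cortex by 1.14 ± 0.234 (adjusted p = 0.00360), although neither liver nor muscle passed alone. Hlf did not differ between any pair of tissues (intervals from -0.30 to 0.30 for liver against muscle and from -0.36 to 0.23 for liver against cortex). The counts of members were 3 of 4 for liver against muscle, where 31% of 21608 genes passed, 2 of 4 for liver against cortex, where 26.7% did, and 1 of 4 for muscle against cortex, where 3.8% did.

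In the females no member passed in any tissue, though Tef in cortex did when AL mouse 26 was left out (log2 0.28, adjusted p = 0.0449). In liver 0 of 4 passed, beside 0% of 15938 genes (0 genes by edgeR, with 919 at an unadjusted p under 0.05, and 8 genes by DESeq2). In muscle 0 of 4 passed, beside 0.00653% of 15308 genes (1 gene by edgeR, 1644 unadjusted, 83 by DESeq2), and in cortex 0 of 4, beside 0.0109% of 18403 genes (2 genes by edgeR, 2069 unadjusted, 60 by DESeq2). Few genes of any kind were called there, so the members' count says little about the members.

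The female levels show how far the diets overlapped. Dbp in AL female liver ranged from 193 through 226 to 297 CPM and in IF from 194 through 249 to 312 CPM, and Tef from 309 through 427 to 624.6 CPM and from 394 through 467 to 602 CPM. For both genes the IF range lay almost within the AL range, with log2 differences of 0.09 ± 0.119 and 0.18 ± 0.148. Hlf differed by 0.06 ± 0.138 and Nfil3 by -0.33 ± 0.140 in female liver. All 8 IF livers of females were under the AL median for Nfil3, from 10.55 through 13.1 to 17.4 CPM against 11.8 through 17.8 to 25.6 CPM in AL, yet its adjusted p was 0.839.

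In female muscle the log2 differences were 0.22 for Dbp, 0.22 for Tef, 0.15 for Hlf and 0.26 for Nfil3, with adjusted p from 0.391 to 0.736. Dbp ranged from 137 through 178 to 205 CPM in AL and from 164 through 193 to 229 CPM in IF female muscle, and the diets overlapped. In female cortex the differences were 0.23 for Dbp, 0.22 for Tef, -0.01 for Hlf and -0.28 for Nfil3, with adjusted p from 0.355 to 0.981. Dbp there ranged from 106 through 112 to 139 CPM in AL and from 119 through 138 to 154 CPM in IF, and all 8 IF cortices were above the AL median while 4 were above all AL cortices. Between tissues the diet changes of the females did not differ for any member, 0 of 4 in each pair, beside 0.0047% of 21292 genes for liver against muscle, 0% for liver against cortex and 0.0047% for muscle against cortex. By edgeR 1648, 2037 and 1160 genes had an unadjusted p under 0.05 in these comparisons, which were not run with DESeq2.

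The difference between males and females in the diet change was tested itself. In liver the change of Dbp was lower in females by a log2 difference of -1.39 ± 0.454 (adjusted p = 0.0252), and that of Tef by -1.48 ± 0.214 (adjusted p = 2.78e-06). Hlf (-0.24 ± 0.171, adjusted p = 0.328) and Nfil3 (-0.09 ± 0.224, adjusted p = 0.813) did not pass, so 2 of 4 members differed where 23.7% of 17658 genes did. In muscle 0 of 4 differed, with estimates from -0.11 to 0.04 and adjusted p from 0.589 to 0.938, where 14.2% of 16346 genes did (2314 genes by edgeR, 4527 at an unadjusted p under 0.05). In cortex Dbp differed at -0.53 ± 0.145 (adjusted p = 0.0481), 1 of 4 members, where 2.03% of 19547 genes did, but not with the omitted library of AL mouse 1 put back (-0.29, adjusted p = 0.651). Labelled sex and any difference in how the 2 sets of mice were kept or collected cannot be told apart.

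Fed mice of the 2 sexes already differed widely in these genes. Dbp in AL female liver had a median 36.9 times that of AL males, 226 against 6.12 CPM. Every female liver, AL or IF, exceeded every male liver, and the lowest AL female held 7.07 times the highest AL male. In the fit Dbp was 23.4-fold higher in AL females (log2 4.55 ± 0.369, adjusted p = 5.38e-11), Tef 4.86-fold (2.28 ± 0.158, adjusted p = 2.54e-14) and Hlf 1.69-fold (0.76 ± 0.122, adjusted p = 1.03e-05). Nfil3 was lower in AL female liver, at 11.8 through 17.8 to 25.6 CPM against 33.9 through 45.2 to 63.5 CPM in males. No female liver reached the lowest male liver of its diet, and the log2 difference was -1.59 ± 0.162 (adjusted p = 7.27e-10).

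The same opposition of Dbp and Nfil3 was seen in fed muscle. AL female muscle held 137 through 178 to 205 CPM of Dbp and AL male muscle 12.4 through 36.1 to 49.4 CPM, without overlap (log2 2.19 ± 0.189, adjusted p = 3.98e-10). Nfil3 was at 10.7 through 12.1 to 15.3 CPM in females and 23.5 through 34.7 to 48.7 CPM in males, again without overlap (log2 -1.68 ± 0.165, adjusted p = 4.03e-09). Hlf was 0.31 ± 0.124 higher (adjusted p = 0.0462) and Tef differed by 0.18 ± 0.0845 (adjusted p = 0.0821), though it passed by library totals alone (0.32, adjusted p = 0.00104). In AL cortex Dbp was higher in females by 0.86 ± 0.106 (adjusted p = 2.21e-06), without overlap, while Tef (0.03), Hlf (0.09) and Nfil3 (-0.28) did not pass. The members that passed were 4 of 4 in liver, where 20% of genes did, 3 of 4 in muscle, where 38.4% did, and 1 of 4 in cortex, where 12.6% did.

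The sexes were compared in the fasted mice as well. Tef was 1.74-fold higher in female than in male IF liver (log2 0.80 ± 0.152, adjusted p = 5.22e-05), and Dbp 8.97-fold (log2 3.16 ± 0.344, adjusted p = 1.65e-08). Hlf was higher by 0.51 ± 0.121 on the log2 scale (adjusted p = 8.28e-04) and Nfil3 lower at -1.68 ± 0.163 (adjusted p = 1.67e-10), so 4 of 4 passed where 37.5% of genes did. In IF muscle Dbp (2.24 ± 0.189) and Nfil3 (-1.79 ± 0.165) differed without overlap, and Tef (0.07) and Hlf (0.20) did not pass, 2 of 4 where 28% of genes did. In IF cortex 0 of 4 passed by edgeR, where 4.32% of genes did (845 genes, 3385 at an unadjusted p under 0.05). The differences there were 0.33 for Dbp (adjusted p = 0.0514, and 0.0287 by library totals alone), -0.22 for Tef, -0.23 for Hlf and 0.11 for Nfil3.

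Markers of other cells differed between the sexes in the same libraries, most of all in the fasted mice. In IF liver all 5 erythrocyte markers were lower in females, with sums of 261 to 1031 CPM against 667 to 6879 CPM in males and Hba-a1 and Hbb-bs the most abundant. All 5 endothelial markers were lower there too, with sums of 62 to 120 CPM against 148 to 314 CPM, without overlap, and Stab2 the most abundant. The adipocyte markers Fabp4 and Cidec were also lower in female IF liver, while Cd68 of the leukocyte list and 2 of 5 liver markers were higher and 2 lower. In IF muscle 4 of 5 adipocyte markers were lower in females, all but Lep, with sums of 112 to 556 CPM against 332 to 2489 CPM and Fabp4 the most abundant. There 4 of 5 endothelial markers were lower as well, with sums of 74.1 to 132 CPM against 145 to 213 CPM, and so were Hba-a2 and Cyp2e1, while Ptprc, Cd3e and Acta1 were higher.

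Fewer markers differed in the fed mice. In AL liver the macrophage markers Cd68 and Clec4f were higher in females, with leukocyte and macrophage sums of 149 to 345 CPM against 84.8 to 156 CPM, and Tek, Alas2 and Serpina1c were lower. In AL muscle 3 of 5 erythrocyte markers were lower in females, with sums of 57.9 to 396 CPM against 190 to 869 CPM, as were Stab2, Ckm and Tnnt3, while Ptprc and Cyp2e1 were higher and no adipocyte marker passed. In cortex Mbp was higher in AL females, and Tek and Cyp2e1 in IF females. The part of these markers in the sex differences of the members was not tested.

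Between tissues of fed males, Hlf was highest in cortex, by 3.92-fold over liver (liver minus cortex, log2 -1.97 ± 0.118, adjusted p = 6.35e-12) and 7.26-fold over muscle (log2 -2.86 ± 0.122). Dbp and Tef were lowest in liver, Dbp by -2.42 ± 0.286 against muscle and -2.20 ± 0.295 against cortex, and Tef by -1.55 ± 0.109 and -1.03 ± 0.113 on the log2 scale. Nfil3 was higher in liver and muscle than in cortex, by 2.25 ± 0.136 and 2.05 ± 0.135. Nfil3 in liver against muscle (0.20, adjusted p = 0.143) and Dbp in muscle against cortex (0.23, adjusted p = 0.463) did not pass.

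The comparisons of muscle with cortex depend on how the tissues are scaled. By library totals alone, a setting chosen after seeing the data, Dbp was lower in muscle than in cortex of fed males at -0.82 (adjusted p = 0.0100), as its CPM are. Tef was higher in male muscle than in cortex in the main fit (0.51 ± 0.113, adjusted p = 4.08e-04) and lower by library totals (-0.54, adjusted p = 1.57e-04), and in females the same turn was seen (0.59 ± 0.115 and -0.30, adjusted p = 1.12e-04 and 0.0309). Which of muscle and cortex holds more Tef, and in males more Dbp, is therefore not settled by these counts. Sizes moved too in fed males. By library totals liver minus cortex was at -3.03 for Dbp, -1.87 for Tef, -2.80 for Hlf and 1.41 for Nfil3, and muscle minus cortex at -3.92 for Hlf and 0.996 for Nfil3, all of which still passed. Nfil3 in male liver against muscle passed in that setting (0.42, adjusted p = 0.00647).

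In fed females the liver was no longer the lowest tissue for Dbp and Tef. Dbp was higher in liver than in cortex by 1.64 ± 0.0961 (adjusted p = 2.88e-12) and Tef by 1.11 ± 0.116 (adjusted p = 2.65e-08), where the males had -2.20 and -1.03. Whether these tissue differences differ between the sexes was not tested. Hlf was again highest in cortex, by -1.42 ± 0.145 for liver minus cortex and -2.74 ± 0.153 for muscle minus cortex. By library totals alone liver minus cortex was smaller for Dbp (1.01) and Tef (0.49) and larger for Hlf (-2.05), as was muscle minus cortex for Hlf (-3.62). Liver minus cortex for Nfil3 went from 0.93 ± 0.138 in the main fit to 0.30 by library totals. Muscle minus cortex for Dbp went from 1.45 ± 0.0955 to 0.56. All of these still passed. Nfil3 was higher in female muscle than in cortex in the main fit (0.69 ± 0.138, adjusted p = 1.30e-04), but at -0.19 by library totals (adjusted p = 0.192). Which of these tissues holds more Nfil3 is not settled in females either. Most genes differed between tissues, and the members' counts lay near that background. For liver against muscle 3 of 4 passed in males and 2 of 4 in females, beside 79.2% and 79.1% of genes, for liver against cortex 4 of 4 in both, beside 83.4% and 84%, and for muscle against cortex 3 of 4 and 4 of 4, beside 80.2% and 80.5%.

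The fed males also varied more among themselves in Dbp than most genes did. The SD of log2 CPM of Dbp over the 8 AL male livers was 1.30, above 95.3% of 16204 genes, and over the AL male muscles 0.65, above 91.0% of 15025 genes. Across the IF males it was 0.22 in liver, above 17.6% of genes, and 0.32 in muscle, above 63.3%. AL mouse 1 had the lowest and AL mouse 8 the highest Dbp of the AL males in both tissues, 1.33 and 27.3 CPM in liver and 12.4 and 49.4 CPM in muscle. Cortex did not follow them, since AL mouse 8 had the lowest Dbp of the 7 AL males used there (45.2 CPM) and AL mouse 6 the highest (84.8 CPM), and within AL males r of Dbp between liver and cortex was -0.29. AL mouse 1 was also lowest, and AL mouse 8 highest, among AL male muscles for Tef (158 and 245.9 CPM) and Hlf (7.98 and 12.5 CPM).

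Levels in the same mouse were compared between tissues after subtracting each group's mean, over 12 relations. For Dbp, liver and muscle correlated at r = 0.72 (n = 32, permutation p = 0.00269, 0.0323 after Benjamini-Hochberg) and rho = 0.44 (permutation p = 0.0307, adjusted 0.184). Without AL mice 1 and 8, the farthest from the median in liver, r was 0.45 (permutation p = 0.0713, adjusted 0.285), so the call rests on them. Within groups r was 0.88 in AL males, 0.18 in IF males, 0.22 in AL females and -0.05 in IF females. For Tef, liver and muscle gave r = 0.49 (permutation p = 0.00561, adjusted 0.0337) and rho = 0.40 (permutation p = 0.0304, adjusted 0.184), and 0.40 (adjusted permutation p = 0.199) without AL mice 1 and 26. The other 10 relations, among them all with Hlf, with Nfil3 or with cortex, did not pass. For Dbp between muscle and cortex r was 0.18, and 0.46 without AL mouse 2 and IF mouse 9 (adjusted permutation p = 0.852 and 0.199). Within groups that r was 0.74 in AL females, 0.86 in IF females, 0.39 in IF males and -0.29 in AL males. The difference between the groups was not tested.

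Within a tissue, 18 pairs of members were compared across libraries in the same way. Dbp and Tef moved together in liver (r = 0.63, permutation p = 2.1e-04, adjusted 0.00351, rho = 0.64, permutation p = 4.2e-04, adjusted 0.00756, n = 32), and still did without AL mice 1 and 8 (r = 0.54, adjusted permutation p = 0.0256, rho = 0.62, adjusted permutation p = 0.0131). The r within groups ran from 0.47 in IF males to 0.83 in AL males. They also did in muscle (r = 0.57, permutation p = 3.9e-04, adjusted 0.00351, rho = 0.50, permutation p = 0.00434, adjusted 0.0238), and without AL mice 1 and 6 r still passed at 0.46 (adjusted permutation p = 0.0493) while rho did not (0.41, adjusted permutation p = 0.111). Within groups r in muscle ran from 0.22 in IF males to 0.87 in AL males.

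Tef and Hlf moved together in cortex (r = 0.60, n = 31, permutation p = 8.7e-04, adjusted 0.00522, rho = 0.53, permutation p = 0.00445, adjusted 0.0238), and without AL mouse 26 and IF mouse 36 r was 0.66 (adjusted permutation p = 0.0158) and rho 0.53, which did not pass (adjusted permutation p = 0.0609). Within groups r was -0.23 in AL females and 0.69 to 0.83 in the other groups, a difference that was not tested. The AL females include mouse 26, whose Tef in cortex stood far above the rest of its group. In muscle Dbp with Hlf (r = 0.46, permutation p = 0.00248, adjusted 0.0112, rho = 0.48, permutation p = 0.00660, adjusted 0.0238) and Tef with Hlf (r = 0.52, permutation p = 0.00342, adjusted 0.0123, rho = 0.50, permutation p = 0.00593, adjusted 0.0238) passed. Neither kept its adjusted call without the 2 farthest mice, though both stayed positive, with r = 0.40 (adjusted permutation p = 0.0822) and rho = 0.41 without AL mice 1 and 6 for Dbp and r = 0.39 (adjusted permutation p = 0.120) and rho = 0.41 without AL mouse 32 and IF mouse 34 for Tef. Within groups r of Dbp with Hlf was 0.70 in AL females and 0.89 in AL males but 0.00 in IF females and 0.06 in IF males, a difference between the diets that was not tested. For Tef with Hlf it was 0.64 and 0.83 in AL females and males, and 0.24 and 0.50 in IF. None of the 9 pairs with Nfil3 passed, the nearest being Hlf with Nfil3 in muscle (r = -0.38, adjusted permutation p = 0.0555).

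The genes whose levels were most like those of each member were ranked among 12655 genes by the mean of r over the 3 tissues, over 32, 32 and 31 libraries, with the difference between the sexes subtracted. The diet change was not subtracted, so it is part of these r. For Dbp and Tef in cortex, r was 0.67 in this measure and 0.07 with all group means removed (adjusted permutation p = 0.840). The genes nearest to Dbp were Tef (0.71), the clock repressor Ciart (0.70) and Per3 (0.61). Tef was followed most closely by Per3 (0.82), then by Dync1h1, a dynein heavy chain (0.78), and Usp2, a deubiquitinase (0.76). Those for Hlf were the clock repressor Cry2 (0.63), Herpud1, a gene of the endoplasmic reticulum stress response (0.61), and the phosphatase Ppm1l (0.61). Nfil3 had weaker matches in the receptor Gpr19 (0.53), Ppp1r3c, which targets a phosphatase to glycogen (0.51), and the RNA-binding protein Hnrnph1 (0.51).

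The regulators above these factors changed with diet in the same male livers. They were listed with earlier results of these data known, so their counts are a description. Of 16 core clock genes 15 were tested, and 10 were higher and 4 lower in IF, beside 23.5% and 21.1% of all genes, with a median log2 change of 0.96 beside 0.06. Per1, a repressor of its own activators, ranged from 2.64 through 5.72 to 8.29 CPM in AL and from 46.9 through 136 to 203 CPM in IF male liver, without overlap (log2 4.53 ± 0.293, adjusted p = 1.80e-09). Ciart, a repressor of BMAL1 and CLOCK, changed by 3.92 ± 0.482 and Per3 by 2.22 ± 0.229.

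Among the genes that were lower, Npas2, the partner that can replace CLOCK, ranged from 1.94 through 7.54 to 14.8 CPM in AL and from 0 through 0 to 0.404 CPM in IF livers (adjusted p = 8.76e-07). Its IF livers held almost no reads, so no fold is given. Nr1d1, which encodes REV-ERB alpha, fell by 1.96 ± 0.256 on the log2 scale, and ranged from 45.2 through 72.2 to 132 CPM in AL and from 8.20 through 19.4 to 30.3 CPM in IF. Arntl, which encodes BMAL1, fell by 1.91 ± 0.161, and Clock was the other gene that was lower.

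In male muscle 7 of 15 tested clock genes were higher and 7 lower, beside 11.5% and 11.6% of all genes, with a median of -0.09 beside 0.01. Per1 (2.04) and Per3 (1.05) rose there as in liver, Nr1d1 (-2.47), Npas2 (-2.38) and Arntl (-1.003) were lower, and Ciart (-0.09, adjusted p = 0.856) did not pass. In male cortex 3 of 16 were higher (Per3, Bhlhe41 and Ciart) and 2 lower (Arntl and Clock), beside 3.79% and 3.43% of all genes, with a median of 0.20 beside 0.00. Ciart changed by 0.95 ± 0.117 in cortex (adjusted p = 3.26e-04). In females 0 of 14 clock genes tested in liver, 0 of 14 in muscle and 0 of 16 in cortex passed by edgeR, with medians of 0.05, 0.00 and 0.03. Beside these, 0%, 0.00653% and 0.0109% of all genes passed. The diet change differed between females and males in liver for 11 of 15 clock genes, 3 higher and 8 lower in females, beside 23.7% of all genes. In muscle it differed for 9 of 16, 4 higher and 5 lower, beside 14.2%, and in cortex for 1 of 16 (Ciart, lower), beside 2.03%.

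**Figure D3:**
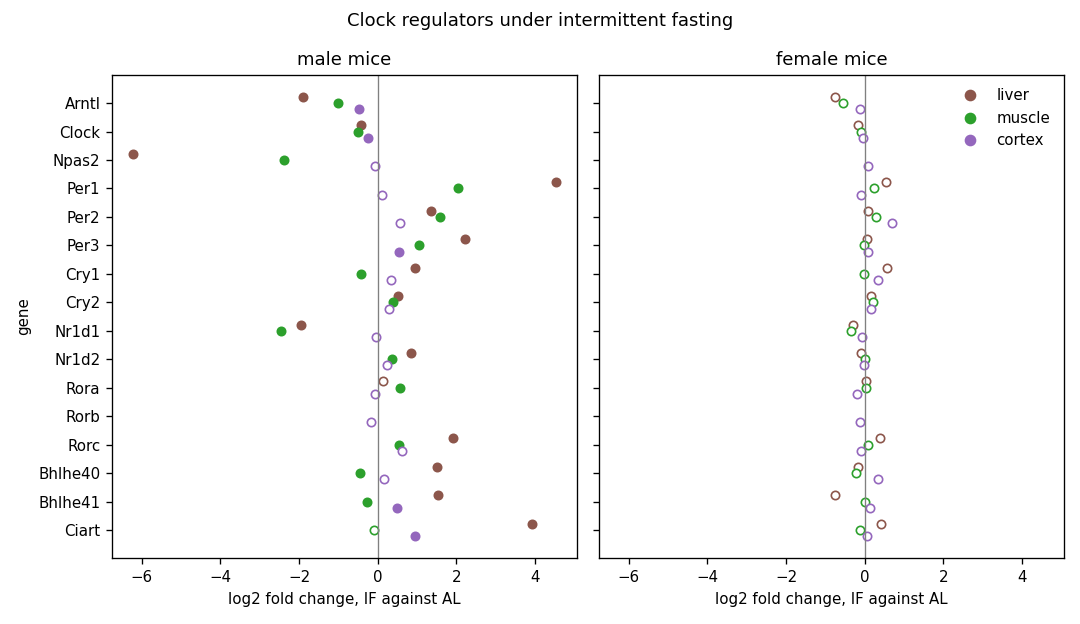
Log2 change from AL to IF of those of the 16 clock regulators that were tested in each tissue of the males and females. Filled points have an adjusted p under 0.05. In male liver Per1 lies farthest to the right at 4.53, and in females no point is filled.

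Genes known as targets of the PAR bZIP factors or of Nfil3 were mostly higher in fasted male liver. This list was chosen with earlier results of these data known, so its counts are a description and no independent support. Of 9 tested, 7 were higher and 1 lower, beside 23.5% and 21.1% of all genes, with a median log2 change of 1.18 beside 0.06. Por, the reductase that passes electrons to cytochromes P450, ranged from 85.5 through 126 to 163 CPM in AL and from 870 through 986 to 1283 CPM in IF, without overlap (log2 2.94 ± 0.156, adjusted p = 1.19e-12). Abcb1a, a drug efflux pump, changed by 2.30 ± 0.232 and the cytochrome Cyp2a5 by 2.28 ± 0.158, though reads of Cyp2a5 may be shared with its near-identical copy Cyp2a4.

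Cyp7a1, the rate-limiting enzyme of bile acid synthesis, was the target that fell, by 1.04 ± 0.293 on the log2 scale (adjusted p = 0.00835), and ranged from 11.5 through 30.5 to 57.8 CPM in AL and from 7.87 through 17.7 to 25.97 CPM in IF. The diets overlapped for Cyp7a1 and also for Fgf21, a hormone of the fasting liver, which changed by 0.99 ± 0.373 (adjusted p = 0.0383). Cyp2b10 was at 0.24 ± 0.363 (adjusted p = 0.613). Of the 4 targets tested elsewhere, Por alone rose in male muscle (0.71, adjusted p = 0.0468, list median 0.15), beside 11.5% of genes that were higher. In male cortex 0 of 4 passed by edgeR (median 0.09), beside 7.21% of genes. In females 0 of 9 passed in liver, 0 of 4 in muscle and 0 of 4 in cortex, with medians of 0.15, -0.02 and 0.08. Beside these, 0%, 0.00653% and 0.0109% of all genes passed, so the counts say little about the targets. Between the sexes the diet change in liver differed for 6 of 9 targets, 5 lower in females and Cyp7a1 higher, beside 23.7% of all genes. In muscle it differed for 1 of 4 (Por, lower), beside 14.2%, and in cortex for 0 of 5, beside 2.03%.

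The C/EBP factors, other bZIP proteins that bind related elements, were counted beside them, as a list also chosen with earlier results known. In male liver 3 of 5 passed, all higher (Cebpb, Cebpd and Cebpg, median 0.57), beside 23.5% of all genes that were higher. In either direction 44.6% of all genes passed there, which lies near 3 of 5. In male muscle 3 of 4 were higher (Cebpa, Cebpb and Cebpd, median 1.24), beside 11.5% of genes, and in male cortex 1 of 4 (Cebpd, median 0.12), beside 3.79%. In the same male muscles 4 of 5 adipocyte markers rose (median 2.20), and their part in the C/EBP changes was not tested. Cebpd ranged from 4.41 through 5.79 to 7.43 CPM in AL and from 11.9 through 19.6 to 25.8 CPM in IF male liver, without overlap (log2 1.63 ± 0.160, adjusted p = 1.58e-08). Cebpb changed by 1.56 ± 0.179, while Cebpe (-0.28, adjusted p = 0.175) and Cebpa (-0.04, adjusted p = 0.839) did not pass. In females 0 of 5, 0 of 4 and 0 of 4 passed in liver, muscle and cortex by edgeR, with medians of 0.17, 0.24 and 0.00. Beside these, 0%, 0.00653% and 0.0109% of all genes passed.

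All 4 members were looked up for elements through which the clock acts. RefSeq promoter windows on GRCm38.p6 were found for all 4 genes, with 2 for Tef, and were searched on both strands for the D-box TTANGTAA, the E-box CACGTG and the RORE cores AGGTCA and GGGTCA. Among 32851 promoters 2.32% held the D-box, 7.15% the E-box, 16.3% AGGTCA and 13.7% GGGTCA. Each Tef promoter held 1 E-box, the Nfil3 promoter held 1 AGGTCA on its minus strand, and those of Dbp and Hlf held none of the 4 motifs. The 250 bases before the start are shown for the promoters with a match, at chr15:81802423-81802672 and chr15:81811164-81811413 (plus strand) for Tef and chr13:52981040-52981289 (minus strand) for Nfil3, so that the position of each match can be read. Capitals mark the E-box in Tef and, in Nfil3, the RORE core as TGACCT, its reverse complement.
Tef promoter 1: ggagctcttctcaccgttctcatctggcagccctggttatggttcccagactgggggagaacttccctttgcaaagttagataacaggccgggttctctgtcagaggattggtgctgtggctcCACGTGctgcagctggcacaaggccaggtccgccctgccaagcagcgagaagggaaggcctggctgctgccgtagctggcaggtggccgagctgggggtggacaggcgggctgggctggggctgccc
Tef promoter 2: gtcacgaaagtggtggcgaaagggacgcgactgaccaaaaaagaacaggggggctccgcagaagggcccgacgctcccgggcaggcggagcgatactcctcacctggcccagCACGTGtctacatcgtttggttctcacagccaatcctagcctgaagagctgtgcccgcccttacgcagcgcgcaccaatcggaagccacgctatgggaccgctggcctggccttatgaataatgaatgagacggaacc
Nfil3 promoter: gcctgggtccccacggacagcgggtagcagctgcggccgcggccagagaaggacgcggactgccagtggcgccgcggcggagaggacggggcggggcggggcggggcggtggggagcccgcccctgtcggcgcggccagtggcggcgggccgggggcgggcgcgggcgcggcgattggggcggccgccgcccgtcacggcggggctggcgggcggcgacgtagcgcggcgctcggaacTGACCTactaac

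Dbp had the widest range of group means, as a ratio of the highest to the lowest. It is known to be driven through E-boxes within the gene, so its whole length was searched on the GRCm39 genome, with introns placed by GENCODE. Its 5116 bases held 2 E-boxes, both in intron 2, and 10.8% of 27685 stretches of that length on chromosome 7 held as many or more. The other members, searched in the same way, held 6 in 24443 bases for Tef, 8 in 54360 bases for Hlf and 4 in 13865 bases for Nfil3, and of stretches of those lengths on their chromosomes 9.40%, 36.7% and 8.96% held as many or more. The count in Dbp therefore does not set it apart. The E-box in each Tef promoter shown above is among the 6 of the Tef gene. Those of Dbp are shown with their flanks, on the plus strand at chr7:45357119-45357158 and chr7:45357232-45357271, to place the sequence that the activators of Dbp are known to read, and the capitals mark the E-box. A match of letters describes the sequence and does not show binding in these mice.
Dbp E-box 1: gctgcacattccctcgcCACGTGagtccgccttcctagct
Dbp E-box 2: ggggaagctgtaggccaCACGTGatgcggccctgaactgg

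Other genes share sequence with 2 of the members. Sphk2, a sphingosine kinase gene on the opposite strand, overlaps Dbp by 737 bases and averaged 84.1 CPM in liver, 20.1 CPM in muscle and 40.2 CPM in cortex. The noncoding Gm17597 overlaps Tef by 193 bases and averaged at most 1.496 CPM in a tissue. The strand setting of the counting is not stated, so reads from the shared bases cannot be told apart by gene.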

How the data were processed

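The authors aligned poly-A RNA-seq reads to mm39 with HISAT2 and deposited the read count per gene, without normalization. The labels gave tissue, sex, diet and mouse for the 95 columns used, and the cortex library of AL mouse 1 was left out. CPM is a count divided by the library's gene total. Each tissue and sex was fitted with edgeR 4.0.16 in R 4.3.3 (TMM, expression filter with minimum count 10 and total 15, robust quasi-likelihood test, Benjamini-Hochberg over all genes tested, threshold 0.05). Interaction fits tested sex by diet and tissue by diet. The SE was taken as the absolute log2 change over the square root of the test's F statistic. A 95% interval spans 1.96 SE on either side. Alternatives were DESeq2 1.42.0, other size factors, library totals, no filter, a replicate block, 7 mice per group, 1 fit over tissues and leaving out each library. Correlations used log2 CPM (prior count 2) and 100000 two-sided permutations within groups, in Python 3.11.15 with numpy 2.4.6 and scipy 1.17.1. Figures used matplotlib 3.10.9. The fits were tested on simulated data. Intervals for counting error were not given, since the spread between mice covers more. Named are the 4 members, the list genes with the largest and smallest liver changes, the 3 genes most like each member, genes of a list or marker list that passed where these are few, and genes that overlap a member, of which the last 2 kinds were chosen after their values were seen. Members and lists were chosen with earlier results of these data known.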

Additional observations from a re-analysis of the deposited data

Results flagged for a closer look

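In 48 groups of libraries the highest or lowest value of a member was compared with the rest of its group, and 2 groups held a library that stood far from the others, where chance alone picks about 1 in 20 groups. The liver of AL male mouse 8 held 27.3 CPM of Dbp, against 12.9 CPM in the next highest of the 8 AL male livers. The cortex of AL female mouse 26 held 408 CPM of Tef, against 330 CPM in the next highest of its group.

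A test of the difference itself set groups apart in 9 results. The diet change was lower in females than in males in liver for Dbp (log2 difference -1.39) and Tef (-1.48), and in cortex for Dbp (-0.53). In the males it was larger in liver than in muscle for Dbp (1.57) and Tef (1.31) and lower for Nfil3 (-0.69). It was larger in liver than in cortex for Dbp (0.91) and Tef (1.14), and larger in muscle than in cortex for Nfil3 (1.14). Dbp in cortex between the sexes no longer passed with the omitted library put back (-0.29). Nor did Dbp in male liver against cortex without the mouse block (0.72).

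The omitted cortex library of AL mouse 1 held 157 CPM of Dbp and 399 CPM of Tef, both above the highest of the other 7 AL male cortices, at 84.8 and 367 CPM. Its Hlf (186 CPM) lay within their range and its Nfil3 (9.31 CPM) below it.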

How the results depend on the processing

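Of 544 alternative fits of the members' diet changes, 525 kept their side of the threshold, 16 no longer passed and 3 newly passed, none with the other sign where it passed. So did 27 of 28 for the sexes in fed and 27 of 28 in fasted mice, 27 of 28 for the sex difference and 83 of 84 for the tissue difference of the diet change. Between fed tissues 77 of 84 kept theirs, 3 newly passed and 4 were reversed. The lists of other genes were fitted in the main setting only. The causes of the changes below were not tested.

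Library totals for comparisons of sexes or tissues, and all alternatives for the sexes in fasted mice, were chosen after seeing the data. By library totals, muscle minus cortex in fed mice was reversed for Dbp (-0.82, adjusted p = 0.0100) and Tef (-0.54, 1.57e-04) in males and for Tef (-0.30, 0.0309) and Nfil3 (-0.19, 0.192) in females. Newly passing were liver minus muscle for Nfil3 in males (0.42, 0.00647) and for Dbp (0.44, 1.86e-04) and Nfil3 (0.50, 0.00236) in females, Tef in muscle between the fed sexes (0.32, 0.00104) and Dbp in cortex between the fasted sexes (0.34, 0.0287).

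For Hlf in male muscle the log2 change was 0.28 with a block for the replicate number (adjusted p = 0.0611), 0.21 with 7 mice per group (0.117) and 0.27 in 1 fit over the 3 tissues (0.108), with adjusted p from 0.0125 to 0.117 over its alternatives. Leaving out single libraries gave 0.23 to 0.31, and the call was lost without AL mouse 1, 2 or 4 or IF mouse 10, 11, 13, 14 or 15. The replicate block pairs mice that share only a number: within pairs r ran from -0.26 to 0.46 after group means were removed.

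In male cortex, with the omitted library of AL mouse 1 put back, Dbp was at 0.52 (adjusted p = 0.189), Nfil3 at -0.59 (0.0634) and the sex difference of Dbp at -0.29 (0.651). In 1 fit over the 3 tissues Dbp was at 0.75 (0.329), Tef at 0.46 (0.0502) and Nfil3 at -0.69 (0.0531), and Dbp for liver minus cortex was at 0.72 without the mouse block (0.204). Adjusted p over the alternatives reached down to 8.58e-08 for Dbp, 3.27e-08 for Tef and 2.33e-04 for Nfil3 in male cortex, 0.0400 for the sex difference and 0.0109 for liver minus cortex.

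Leaving out single libraries gave 0.28 to 0.47 for Nfil3 in male muscle, called without IF mouse 10 (adjusted p = 0.0411, up to 0.205 over the alternatives). It gave 0.24 to 0.39 for Hlf in male cortex, called without AL mouse 7 (0.0342, up to 0.262), and 0.20 to 0.28 for Tef in female cortex, called without AL mouse 26 (0.0449, up to 1).

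Genes called in male muscle were 2195 in 1 fit. In male cortex they were 2140 by DESeq2, 382 with the replicate block, 498 with 7 mice per group, 294 with the omitted library, 119 in 1 fit and 638 (without AL mouse 2) to 2060 (without IF mouse 12) with single libraries left out, moving by over 1.5 times without AL mouse 2, 3 or 5 or IF mouse 11, 12, 13 or 14. In females they were 8 by DESeq2 and 283 in 1 fit in liver, 83 by DESeq2, 5 unfiltered, 4 in 1 fit and 1 to 3 with libraries left out (more than 1 without AL mouse 27 or IF mouse 33) in muscle, and 0 by library totals, 60 by DESeq2, 0 with the block, 5 in 1 fit and 0 to 254 (without AL mouse 26) with libraries left out in cortex, where 15 of 16 libraries moved the count. With the omitted library, the sex difference of the diet change in cortex had 81 called genes in place of 397, and fed females against fed males in cortex 1326 in place of 2472. For females, liver minus muscle had 2 by RLE size factors, 4 by library totals and 13 without the mouse block, liver minus cortex 12 without the block, and muscle minus cortex 0 by library totals.

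Without the 2 farthest mice, r was 0.45 for Dbp and 0.40 for Tef between liver and muscle, and in muscle 0.40 for Dbp with Hlf and 0.39 for Tef with Hlf.

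Dbp in male liver rested on as few as 48 counts in a library.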
